A study of Mus musculus with 15 samples.

Results

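A set of 10 genes that report on protein folding stress and on temperature was followed in innate lymphoid cells of the mouse small intestine over 4 times of day. They were chosen by name: 8 heat shock chaperone genes (Hspa1a, Hspa1b, Hspa8, Hsp90aa1, Hsph1, Dnajb1, Hspd1 and Hspe1) and 2 cold-inducible RNA-binding protein genes (Cirbp and Rbm3), out of 22797 genes in the files. All 10 were found and all 10 passed the filter on low counts, which left 15339 genes for testing. Type 3 innate lymphoid cells (ILC3) and type 2 innate lymphoid cells (ILC2), tissue-resident lymphocytes without rearranged antigen receptors, were sorted at zeitgeber times (ZT) 4, 10, 16 and 23, counted in hours. ZT16 and ZT23 are called night here and ZT4 and ZT10 day, after the usual light cycle, since the lighting was not given in the sources used here. Each of the 8 groups of cell type and time held 2 polyA RNA libraries, except ILC2 at ZT16 with 1, which gives 15 libraries. The mice were female, and no genotype, strain, age or treatment beyond the time was given in the sources used here. Cells of 6 mice were pooled at each time, so each library averages over animals, and nothing in the labels says whether the libraries of 1 time came from separate pools. P-values therefore measure the spread between libraries. All ILC3 libraries carry the batch label 2 and all ILC2 libraries the batch label 1, which leaves the effects of batch and of cell type impossible to separate: they cannot be told apart.

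Total counts ran from 5903163 to 24794403 in ILC3 libraries and from 4016298 to 18538315 in ILC2 libraries. The least deep libraries were ILC2 ZT10 replicate 1, ILC3 ZT4 replicate 1 and ILC2 ZT4 replicate 1 (6543306), all from day times. The least deep night library was ILC2 ZT23 replicate 1 at 9925569. In both cell types ZT4 replicate 1 had the lowest level of Hspa1a, Hspa1b, Hsph1, Dnajb1 and Hspd1 and the highest of Rbm3. That did not hold in both cell types for Hspa8, Hsp90aa1, Hspe1 and Cirbp. The part of depth in the night minus day values was not tested. Levels are given as CPM, counts scaled to a common library total with TMM factors, and as CPM per kilobase of gene length (RPKM) where genes are set side by side. Summed over 4 ILC3 markers (Il22, Il23r, Ccr6, Ncr1) the level was 488 to 1878 CPM in ILC3 libraries and 5.36 to 33.5 CPM in ILC2 libraries, and summed over 5 ILC2 markers (Gata3, Il1rl1, Il5, Il13, Klrg1) it was 25.9 to 84.2 CPM in ILC3 libraries and 838 to 1774 CPM in ILC2 libraries. RNA of other cells was present too. The sum over 5 plasma cell markers was 364 to 4273 CPM in ILC3 libraries and 18653 to 191335 CPM in ILC2 libraries, highest in ILC2 ZT23 replicate 1, and the sum over 5 epithelial markers was highest in ILC3 ZT23 replicate 2 at 2264 CPM. T cell markers summed to 308 to 2409 CPM in ILC3 and 313 to 591 CPM in ILC2, and myeloid markers to 1455 to 3570.2 CPM in ILC3 and 373 to 1849 CPM in ILC2. In such bulk samples fewer cells of a type and less RNA per cell cannot be told apart.

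Heat shock genes are switched on by heat shock factor 1, which binds DNA elements made of inverted GAA units when unfolded proteins or heat draw chaperones away from it. HSP70 proteins bind unfolded stretches of other proteins with the help of J-domain partners and nucleotide exchange factors, HSP90 matures kinases and receptors, and the HSP60 and HSP10 chaperonin folds proteins inside mitochondria. CIRBP and RBM3 are small RNA-binding proteins of glycine-rich type whose RNA increases on mild cooling and falls on warming. Body temperature of mice is higher in the active night phase than in the day, and in mouse tissues and cultured cells rhythms of body temperature are known to drive Hspa1a, Hspa1b and Hsph1 in phase with temperature and Cirbp and Rbm3 against it.

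Promoter windows of RefSeq (GRCm38.p6, 250 bases before to 50 bases after the start of transcription) were found for 7 of the 10 genes. The sequences below were picked because they hold the elements that temperature-dependent genes are known for. A pair of heat shock units was searched as GAANNTTC or TTCNNGAA, which read the same on both strands. It was present in windows of 5 of the 7 genes (Hspa1a, Hspa1b, Hsph1, Hspd1 and Hspe1), against 17.0% of 27025 genes with a window. Runs of 3 units, which contain overlapping pairs, were present for Hsph1, Hspd1 and Hspe1, against 0.662% of all these genes. The octamer TCCCCGCC, described as a mild-cold-responsive element of Cirbp, was searched on both strands and was present for Cirbp, Hspa1a, Hspa1b and Dnajb1, against 6.19% of all genes. A match is a description of the letters and not evidence of binding. Capitals mark heat shock pairs in the chaperone genes, the octamer in Hspa1a, Hspa1b and Cirbp, and, in Hspa1a and Hspa1b, the bases at which those 2 genes differ; all are written 5′ to 3′ in the direction of the gene, with positions counted back from the start of transcription. For Cirbp the window shown is that of the annotated start that has the octamer.
Hspa1a, bases -250 to -1, chr17:34972157-34972406, minus strand: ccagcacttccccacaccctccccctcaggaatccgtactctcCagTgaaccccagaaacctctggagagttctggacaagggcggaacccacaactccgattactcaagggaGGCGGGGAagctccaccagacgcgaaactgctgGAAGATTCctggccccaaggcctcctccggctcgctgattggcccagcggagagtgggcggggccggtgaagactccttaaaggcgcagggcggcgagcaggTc
Hspa1b, bases -250 to -1, chr17:34959239-34959488, minus strand: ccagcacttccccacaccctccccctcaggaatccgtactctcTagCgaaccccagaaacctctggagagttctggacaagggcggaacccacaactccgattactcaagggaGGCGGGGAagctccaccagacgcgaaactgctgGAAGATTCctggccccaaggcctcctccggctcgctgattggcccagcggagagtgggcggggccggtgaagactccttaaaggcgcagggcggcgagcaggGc
Hsph1, bases -100 to -1, chr5:149636337-149636436, minus strand: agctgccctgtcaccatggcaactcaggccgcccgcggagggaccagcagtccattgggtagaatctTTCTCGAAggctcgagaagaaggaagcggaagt
Hspe1, bases -140 to -41, chr1:55088008-55088107, plus strand: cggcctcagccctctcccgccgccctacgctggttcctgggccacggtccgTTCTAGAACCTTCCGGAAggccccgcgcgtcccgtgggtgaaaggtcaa
Cirbp, bases -250 to -151, chr10:80167589-80167688, plus strand: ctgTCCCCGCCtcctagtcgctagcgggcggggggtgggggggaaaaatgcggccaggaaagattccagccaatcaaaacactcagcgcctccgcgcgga

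The windows of Hspa1b and Hspa1a are the same except for 4 substitutions, T44C, C47T, G249T and T276C, given as the Hspa1b base, the position from 1 at the 5′ end of the 300 base window, and the Hspa1a base. Both hold the octamer letters on the opposite strand at -137 and a heat shock pair at -104. The genes lie side by side on chromosome 17, Hspa1a (Entrez 193740) from 34969359 to 34972156 and Hspa1b (Entrez 15511) from 34956429 to 34959238, 10121 bases apart, and Hspa1a lies 547 bases from Hspa1l, a further HSP70 gene. The Hspe1 stretch is the shared promoter of the chaperonin pair: Hspd1 and Hspe1 lie head to head on chromosome 1 (Entrez 15510, 55077833 to 55088243, and Entrez 15528, 55088148 to 55091317) with annotated spans that overlap by 96 bases, and the same run of units is read from the other strand for Hspd1. In Hsph1 a single pair stands at -33, and a run of 3 units, TTCTGGAAAGTTC, lies at 37 bases after the start. In GRCm38.p6 the gene spans were Hspa8 (Entrez 15481) on chromosome 9 from 40801276 to 40805202, Hsp90aa1 (Entrez 15519) on chromosome 12 from 110691036 to 110696395, Hsph1 (Entrez 15505) on chromosome 5 from 149616843 to 149636498, Dnajb1 (Entrez 81489) on chromosome 8 from 83608175 to 83612653, Cirbp (Entrez 12696) on chromosome 10 from 80165990 to 80172786 and Rbm3 (Entrez 19652) on chromosome X from 8138975 to 8145880.

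At night 8 of the 10 genes had a fitted fold change above 0 and the 2 cold-inducible genes were below 0, averaged over both cell types. The night mean against the day mean was 1.26 ± 0.46 for Hspa1a (log2 fold change ± SE), 1.07 ± 0.33 for Dnajb1, 0.89 ± 0.19 for Hsph1, -0.41 ± 0.12 for Cirbp and -1.06 ± 0.21 for Rbm3. No gene of the 10 passed edgeR's quasi-likelihood test at an adjusted p under 0.05, and neither did any of the 15339 genes tested (0%). The share of all genes with a fold change above 0 was 50.1%. At an unadjusted p under 0.05, 7 of the 10 were higher at night (Hspa1a, Hspa1b, Hspa8, Hsp90aa1, Hsph1, Dnajb1 and Hspd1), where 2.31% of all genes were, and 2 of the 10 were lower (Cirbp and Rbm3), where 4.19% of all genes were. Hspe1 missed that level at an unadjusted p of 0.091 and an adjusted p of 0.788. Ranked by p among the genes tested, Rbm3 stood at place 9 with an unadjusted p of 0.000333 and Hsph1 at place 11 with 0.000441, both with an edgeR adjusted p of 0.487. Cirbp stood at place 118 and Hsp90aa1 at place 119. With DESeq2 in place of edgeR, 3 of the 10 passed an adjusted p of 0.05: Rbm3 with 0.000687, Hsph1 with 0.00217 and Cirbp with 0.0482, where 1.13% of the genes with an adjusted p in DESeq2 did. Known clock genes stood at places 1 and 2 of the edgeR ranking, Dbp at -1.31 ± 0.20 and Nr1d1 at -1.08 ± 0.17. Each had an edgeR adjusted p of 0.198. The other clock genes were at -0.54 ± 0.16 (Per1), -0.35 ± 0.22 (Per2) and -0.11 ± 0.14 (Arntl).

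**Figure D1:**
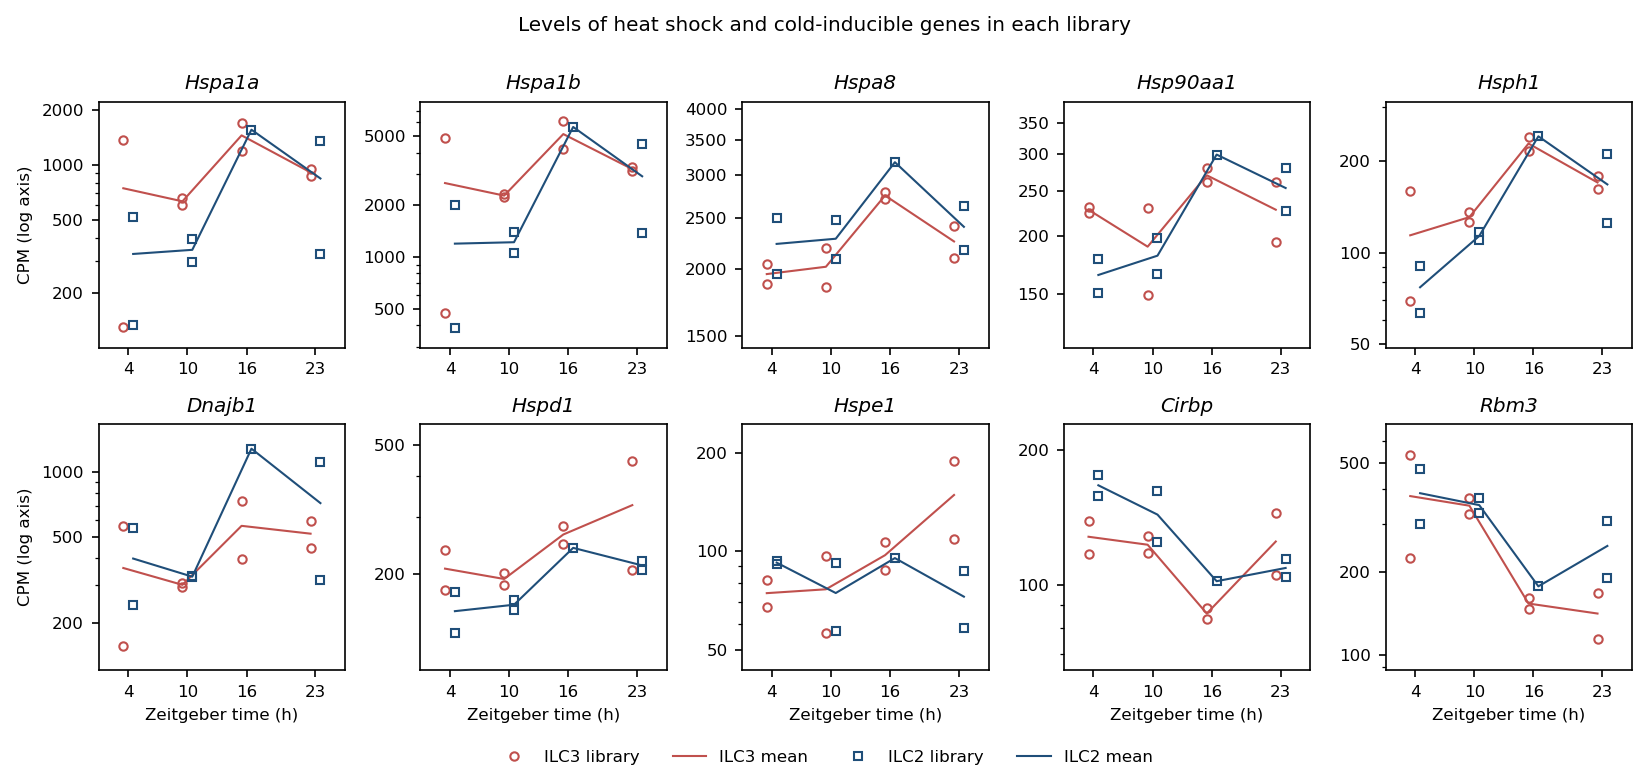
CPM (log axis) of each of the 10 genes against zeitgeber time in hours, with a point for each library, circles for ILC3 and squares for ILC2, and lines through the group means. ILC2 at ZT16 is 1 library. Hsph1 and Hspa1b were highest at ZT16 in both cell types, and the ILC3 ZT4 libraries lie far apart for Hspa1a at 131 and 1358 CPM.

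Hspa1a and Hspa1b code for the stress-inducible HSP70, the chaperone that is scarce in unstressed cells and made in large amounts on heat shock. In ILC3, Hspa1b had 473 and 4859 CPM (ZT4), 2295 and 2216 CPM (ZT10), 6068 and 4169 CPM (ZT16) and 3283 and 3136 CPM (ZT23). In ILC2 it had 388 and 1992 CPM (ZT4), 1381 and 1044 CPM (ZT10), 5627 CPM (ZT16) and 4461 and 1375 CPM (ZT23). Both cell types had their highest mean at ZT16, while day and night libraries overlapped in each: ILC3 ZT4 replicate 2 stood above 3 of the 4 ILC3 night libraries, and ILC2 ZT23 replicate 2 stood within the ILC2 day range. The group means ran in the order ILC2 ZT16, ILC3 ZT16, ILC3 ZT23, ILC2 ZT23, ILC3 ZT4, ILC3 ZT10, ILC2 ZT10 and ILC2 ZT4. Neighbours in that order overlapped, except that both ILC3 ZT16 libraries were above both of ILC3 ZT23, and both of ILC3 ZT10 were above both of ILC2 ZT10. The 2 ILC3 ZT4 libraries differed 10.3-fold in Hspa1b, its widest gap within a group, against a median of 1.46-fold over the 7 groups of 2.

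Night minus day for Hspa1b was 0.72 ± 0.63 in ILC3 and 1.75 ± 0.69 in ILC2 (log2 fold change ± SE). For Hspa1a it was 0.74 ± 0.62 in ILC3 and 1.77 ± 0.68 in ILC2. The ILC3 value rests on the ZT4 pair: leaving out ILC3 ZT4 replicate 2 gave 1.99 for Hspa1a and leaving out ILC3 ZT4 replicate 1 gave 0.31. The ILC2 value of Hspa1a was 1.10 without ILC2 ZT23 replicate 1, the library with the most plasma cell RNA, and 2.42 without ILC2 ZT4 replicate 2. The coding sequences of Hspa1a and Hspa1b are 99.4% identical, with a longest identical run of 638 bases, and how reads matching both were counted was not given in the sources used here, so the split between the 2 genes is uncertain. Hspa1b had 2.91 to 4.20 times the counts of Hspa1a, with a median of 3.57. Summing their counts before the fit gave a night minus day of 1.24 over both cell types.

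Hsph1, the HSP110 that acts as nucleotide exchange factor for HSP70, was the member whose night and day libraries did not overlap in either cell type. Its level in ILC3 was 69.2 and 159 CPM (ZT4), 126 and 136 CPM (ZT10), 240.2 and 216 CPM (ZT16) and 162 and 178 CPM (ZT23). In ILC2 libraries it was 63.4 and 90.5 CPM (ZT4), 117 and 109.9 CPM (ZT10), 241 CPM (ZT16) and 209.9 and 125 CPM (ZT23). The lowest ILC3 night library thus stood just above the highest ILC3 day library, at 162 against 159 CPM, and the gap in ILC2 was 125 against 117 CPM. A lack of overlap with night higher was seen for 11 genes in both cell types at once (0.0717% of those tested), and with night lower for 0.267%, none of the 10 among them. Night minus day was 0.69 ± 0.25 in ILC3 and 1.10 ± 0.28 in ILC2. In ILC3 it was 0.45 without ILC3 ZT4 replicate 1, no longer with an unadjusted p under 0.05, and 1.05 without ILC3 ZT4 replicate 2. Means of Hsph1 ran in the order ILC2 ZT16, ILC3 ZT16, ILC3 ZT23, ILC2 ZT23, ILC3 ZT10, ILC3 ZT4, ILC2 ZT10 and ILC2 ZT4, with 4 night groups above 4 day groups. Neighbours without overlap were ILC2 ZT16 and ILC3 ZT16, ILC3 ZT16 and ILC3 ZT23, and ILC2 ZT10 and ILC2 ZT4, and the other neighbours overlapped.

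Dnajb1, the J-domain protein that feeds clients to HSP70, had 157 and 561 CPM (ZT4), 292 and 307 CPM (ZT10), 733 and 394 CPM (ZT16) and 444 and 593 CPM (ZT23) in ILC3. In ILC2 libraries Dnajb1 stood at 242 and 552 CPM (ZT4), 330.0 and 324 CPM (ZT10), 1286 CPM (ZT16) and 1120.0 and 317 CPM (ZT23). The highest library of each cell type was at ZT16 and the lowest was ZT4 replicate 1, yet night and day overlapped in both, since 2 ILC3 night libraries (ZT16 replicate 2 and ZT23 replicate 1) and ILC2 ZT23 replicate 2 stood within the day range. Night minus day for Dnajb1 was 0.72 ± 0.45 in ILC3, or 1.32 without ILC3 ZT4 replicate 2 and 0.40 without ILC3 ZT4 replicate 1. In ILC2 it was 1.41 ± 0.49, and 0.83 without ILC2 ZT23 replicate 1, where Dnajb1 no longer had an unadjusted p under 0.05. Hsp90aa1, the inducible cytosolic HSP90, had 224 and 231 CPM (ZT4), 229.8 and 149.7 CPM (ZT10), 279.6 and 261 CPM (ZT16) and 195 and 261 CPM (ZT23) in ILC3. Its level in ILC2 was 151 and 179 CPM (ZT4), 198 and 165 CPM (ZT10), 299 CPM (ZT16) and 281 and 227 CPM (ZT23), with every night library above every day library in ILC2 and overlap in ILC3. Night minus day for Hsp90aa1 was 0.26 ± 0.18 in ILC3 and 0.67 ± 0.20 in ILC2. The ILC3 value of Hsp90aa1 was 0.49 without ILC3 ZT10 replicate 1, 0.12 without ILC3 ZT10 replicate 2 and 0.14 without ILC3 ZT23 replicate 2.

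Hspa8 codes for the constitutive HSP70, which folds new proteins in unstressed cells. It had 2042 and 1872 CPM (ZT4), 1851 and 2189 CPM (ZT10), 2788 and 2711 CPM (ZT16) and 2102 and 2405 CPM (ZT23) in ILC3. ILC2 libraries had 2499 and 1961 CPM (ZT4), 2091 and 2469.9 CPM (ZT10), 3176 CPM (ZT16) and 2627 and 2176 CPM (ZT23). Its whole range was 1.51-fold in ILC3 and 1.62-fold in ILC2, against 13.0-fold and 11.7-fold for Hspa1a. The ZT16 libraries were the highest of each cell type for Hspa8. Night minus day was 0.32 ± 0.18 in ILC3 and 0.29 ± 0.20 in ILC2, and the ILC2 value was 0.09 without the ILC2 ZT16 library. Per length, Hspa8 had a median of 1019.8 RPKM in ILC3 and 1174 RPKM in ILC2, and Hspa1b had 1142 RPKM in ILC3 and 492 RPKM in ILC2. The other 8 genes had medians between 46.1 (Hsph1) and 325 RPKM (Hspa1a) in ILC3, and between 33.6 (Hsph1) and 146 RPKM (Dnajb1) in ILC2.

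Hspd1 and Hspe1 code for HSP60 and HSP10, the barrel and the lid of the mitochondrial chaperonin. Hspd1 had 178 and 237 CPM (ZT4), 184 and 201 CPM (ZT10), 281 and 247 CPM (ZT16) and 205 and 446 CPM (ZT23) in ILC3. Its ILC2 libraries stood at 131 and 175 CPM (ZT4), 155 and 166 CPM (ZT10), 240.1 CPM (ZT16) and 219 and 205 CPM (ZT23). In ILC2 every night library was above every day library, while ILC3 libraries overlapped and 1 of them, ZT23 replicate 2, stood far above the rest. Hspe1 in ILC3 had 81.5 and 67.4 CPM (ZT4), 56.3 and 96.6 CPM (ZT10), 87.7 and 107 CPM (ZT16) and 109 and 188 CPM (ZT23). In ILC2 its libraries held 93.0 and 91.5 CPM (ZT4), 57.2 and 91.8 CPM (ZT10), 95.2 CPM (ZT16) and 87.1 and 58.1 CPM (ZT23), with no order by time. Night minus day was 0.55 ± 0.23 in ILC3 and 0.53 ± 0.25 in ILC2 for Hspd1. For Hspe1 it was 0.67 ± 0.25 in ILC3 and 0.00024 ± 0.28 in ILC2. Both ILC3 values were smaller without ILC3 ZT23 replicate 2: 0.22 for Hspd1 and 0.45 for Hspe1. That library also held the most epithelial and the most plasma cell marker RNA of the ILC3 libraries. The part of the epithelial and plasma cell RNA in these values was not tested.

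**Figure D2:**
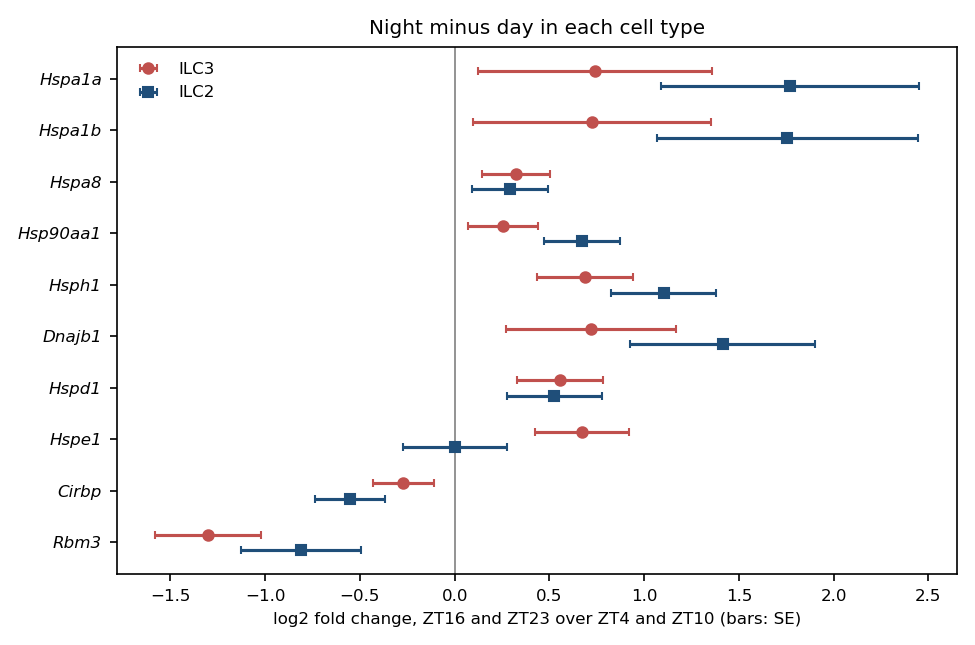
Log2 fold change of night (ZT16 and ZT23) over day (ZT4 and ZT10) for each gene, circles for ILC3 above squares for ILC2, with bars of 1 SE from the edgeR fit. The 8 chaperone genes lie at or above 0, with Hspe1 in ILC2 at 0, and Cirbp and Rbm3 lie below 0 in both cell types.

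Of the cold-inducible pair, Rbm3 differed more than Cirbp. In ILC3, Rbm3 had 532 and 225 CPM (ZT4), 326 and 372 CPM (ZT10), 147 and 161 CPM (ZT16) and 114 and 168 CPM (ZT23). ILC2 libraries had 477 and 298 CPM (ZT4), 328 and 374 CPM (ZT10), 177 CPM (ZT16) and 191 and 307 CPM (ZT23) of Rbm3. Every ILC3 night library was below every ILC3 day library, and in ILC2 only ZT23 replicate 2 reached the day range. Group means of Rbm3 ran in the order ILC2 ZT4, ILC3 ZT4, ILC2 ZT10, ILC3 ZT10, ILC2 ZT23, ILC2 ZT16, ILC3 ZT16 and ILC3 ZT23, so that the 4 day groups were above the 4 night groups. Neighbours without overlap were ILC3 ZT10 and ILC2 ZT23, ILC2 ZT23 and ILC2 ZT16, and ILC2 ZT16 and ILC3 ZT16. Night minus day was -1.30 ± 0.28 in ILC3, at place 6 of the genes ranked by p, and -0.81 ± 0.32 in ILC2. The edgeR adjusted p in ILC3 was 0.948 and that of DESeq2 was 0.00465, where 0.867% of the genes with an adjusted p in DESeq2 passed.

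Cirbp had 139 and 117 CPM (ZT4), 128 and 117 CPM (ZT10), 88.7 and 83.9 CPM (ZT16) and 144 and 105 CPM (ZT23) in ILC3. Its ILC2 levels were 175 and 158 CPM (ZT4), 125 and 162 CPM (ZT10), 102 CPM (ZT16) and 104 and 114 CPM (ZT23). In ILC2 every night library was below every day library, and in ILC3 both ZT16 libraries were the lowest while ZT23 replicate 1 was the highest of all ILC3 libraries. The order of its group means was ILC2 ZT4, ILC2 ZT10, ILC3 ZT4, ILC3 ZT23, ILC3 ZT10, ILC2 ZT23, ILC2 ZT16 and ILC3 ZT16. Among these neighbours ILC3 ZT10 and ILC2 ZT23, ILC2 ZT23 and ILC2 ZT16, and ILC2 ZT16 and ILC3 ZT16 did not overlap. Night minus day for Cirbp was -0.27 ± 0.16 in ILC3 and -0.55 ± 0.18 in ILC2. Its ILC3 value was -0.17 without ILC3 ZT23 replicate 2 and -0.18 without ILC3 ZT10 replicate 1.

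Within a single cell type fewer genes reached an unadjusted p under 0.05 for night minus day, and none had an adjusted p under 0.05 (0% of all genes in each). In ILC3, 3 of the 10 were higher (Hspd1, Hspe1 and Hsph1), with 1.16% of all genes higher, and 1 was lower (Rbm3), with 3.96% lower. In ILC2, 5 were higher (Hspa1a, Hspa1b, Hsp90aa1, Hsph1 and Dnajb1), with 1.9% of all genes higher, and 2 were lower (Cirbp and Rbm3), with 1.99% lower. Night and day libraries did not overlap in ILC3 for Hsph1, which was higher, as were 1.32% of all genes, and for Rbm3, which was lower, as were 2.24%. In ILC2 they did not overlap for Hspd1, Hsp90aa1 and Hsph1, which were higher, against 2.43% of all genes, and for Cirbp, which was lower, against 1.94%. The difference of the night minus day values between ILC3 and ILC2 was tested for all genes. None of the 10 had an unadjusted p under 0.05, where 2.95% of all genes did, and no gene passed the adjusted test (0%). That difference, ILC3 minus ILC2, was -1.03 ± 0.92 for Hspa1a, -0.42 ± 0.38 for Hsph1, 0.67 ± 0.37 for Hspe1, 0.28 ± 0.24 for Cirbp and -0.49 ± 0.41 for Rbm3.

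ZT16 against ZT4, averaged over both cell types, gave 1.60 ± 0.68 for Hspa1a, 1.32 ± 0.28 for Hsph1, 1.17 ± 0.49 for Dnajb1, 0.50 ± 0.20 for Hspa8, -0.64 ± 0.18 for Cirbp and -1.21 ± 0.32 for Rbm3. At an unadjusted p under 0.05, 6 of the 10 were higher at ZT16 (Hspa1a, Hspa1b, Hspa8, Hsp90aa1, Hsph1 and Dnajb1), where 3.51% of all genes were, and Cirbp and Rbm3 were lower, where 4.27% were. Hsph1 stood at place 5 of all genes with an edgeR adjusted p of 0.637. An F-test of any difference among the 4 times over both cell types had an unadjusted p under 0.05 for 6 of the 10 (Hspd1, Cirbp, Hsp90aa1, Hsph1, Dnajb1 and Rbm3), against 5.95% of all genes. The same test had it for 2 in ILC3 (Hspe1 and Rbm3), against 4.36%, and for 3 in ILC2 (Cirbp, Hsp90aa1 and Hsph1), against 3.36%. No gene had an adjusted p under 0.05 in any of these (0%). With DESeq2, Hsph1, Cirbp and Rbm3 had an adjusted p under 0.05 for ZT16 against ZT4, as did 0.241% of the genes with an adjusted p in DESeq2. Hsph1 and Rbm3 had one for the 4 times over both cell types, as did 0.411% of such genes, and Rbm3 for the 4 times in ILC3, as did 0.33%.

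A cosine of 24 hours fitted to log2 CPM gives the hour of the fitted peak as a description, with 4 times in the day. In ILC3 the peak hour was 17.7 ± 1.16 for Hsph1 (± SE), 17.6 ± 0.809 for Hspa8, 17.6 ± 2.14 for Hspa1b, 7.50 ± 0.854 for Rbm3 and 4.47 ± 1.35 for Cirbp. In ILC2 it was 17.6 ± 0.676 for Hsph1, 18.3 ± 0.601 for Hsp90aa1, 17.9 ± 1.33 for Hspa1b, 6.18 ± 1.07 for Rbm3 and 6.23 ± 0.736 for Cirbp. The fitted peaks of the chaperone genes lay between 17.1 and 20.7 hours, leaving out Hspe1 in ILC2, whose fitted hour has an SE longer than the day (26.5 hours). Those of Cirbp and Rbm3 lay between 4.47 and 7.50 hours. For the clock gene Dbp the same fit gave 10.4 ± 0.637 hours in ILC3 and 9.17 ± 0.357 hours in ILC2. Nr1d1 peaked at 7.71 ± 0.678 hours in ILC3 and 5.50 ± 0.951 hours in ILC2. In the same order Per1 was at 9.59 ± 1.08 and 8.99 ± 0.852 hours, and Per2 at 13.2 ± 1.55 and 11.6 ± 0.779 hours. Arntl was at 6.86 ± 1.57 hours in ILC3 and 18.2 ± 4.28 hours in ILC2, where its fitted log2 amplitude was 0.085 ± 0.12.

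The opposite course of Rbm3 and the inducible HSP70 genes was seen between libraries of the same time as well. In each of the 7 groups of 2, the library with more Hspa1a had less Rbm3. The Hspa1a gap was only 1.08-fold in ILC3 ZT23, 1.10-fold in ILC3 ZT10, 1.32-fold in ILC2 ZT10 and 1.42-fold in ILC3 ZT16. The direction in those groups is less certain. Of the other genes tested, 0.906% were opposite to Hspa1a in every one of the 7 groups, and 0.913% went the same way in every one, as Hspa1b did. At ZT4 in ILC3, the libraries with 131 and 1358 CPM of Hspa1a had 532 and 225 CPM of Rbm3, a difference of 2.37-fold. At ZT4 in ILC2, replicates 1 and 2 stood in the same order, with 133 and 519.8 CPM of Hspa1a and 477 and 298 CPM of Rbm3, and whether same-numbered libraries of the cell types share mice is not given in the sources used here. At ZT23 in ILC2, those with 1356 and 328 CPM of Hspa1a had 191 and 307 CPM of Rbm3. Hsph1 and Dnajb1 went the same way as each other in all 7 groups. Each went with Hspa1a in 5, and each was opposite to Rbm3 in 5. Cirbp was opposite to Hspa1a in 4 of the 7, and Hspe1 in 6. These differences hold time, cell type and, as far as the labels say, batch constant, but not the share of RNA from other cells. The libraries of 1 group are the only replicates, so the differences are given without a test.

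**Figure D3:**
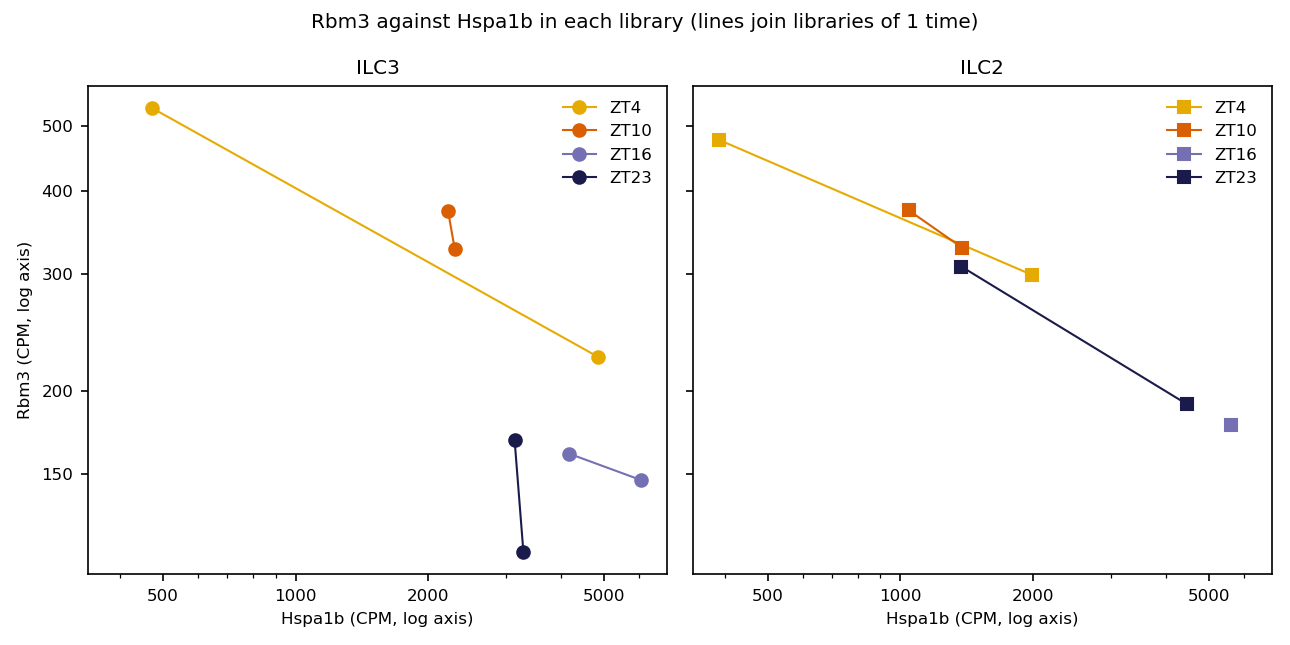
Rbm3 against Hspa1b in each library (CPM, both axes log), ILC3 on the left and ILC2 on the right, coloured by time, with lines joining the libraries of 1 time. Every line slopes down, and Pearson's r of the log values was -0.80 over 8 ILC3 libraries and -0.98 over 7 ILC2 libraries.

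Correlations of log2 CPM after removal of the mean of each cell type, over the 15 libraries, describe how the genes go together. The libraries share times, depth and the makeup of the sort, so no test is given. Hspa1a and Hspa1b, whose reads may be shared, had an r of 0.996. With Hspa1a, r was 0.94 for Dnajb1, 0.93 for Hsph1, 0.63 for Hsp90aa1, 0.62 for Hspd1, 0.44 for Hspa8 and 0.15 for Hspe1. It was -0.85 for Rbm3, with -0.80 in ILC3 and -0.99 in ILC2. Cirbp was most opposite to Hsph1, at -0.83, and its r with Rbm3 was 0.57. The chaperonin genes Hspd1 and Hspe1 had an r of 0.76 in ILC3 and 0.05 in ILC2.

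**Figure D4:**
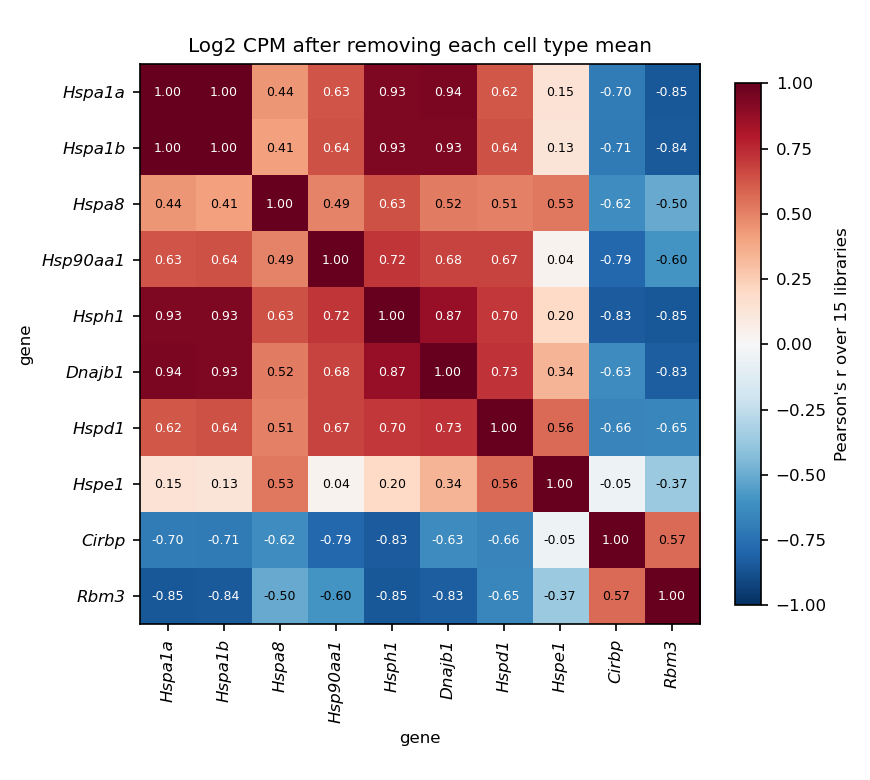
Pearson's r between each pair of genes over 15 libraries, computed on log2 CPM after removing the mean of each cell type, red for positive and blue for negative values. Hspa1a, Hspa1b, Hsph1 and Dnajb1 form a block of r from 0.87 upward, and Hspe1 stands outside it. Rbm3 and Cirbp are negative with the chaperone genes, except that Cirbp with Hspe1 is near 0 at -0.05.

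Among 9051 genes with a mean of at least 10 CPM, those most like each member by this measure were named by rule. After Hspa1b, the genes most like Hspa1a were its neighbour Hspa1l at 0.99, which is 82.7% identical to it in coding sequence, then Jun at 0.95, Dnajb1 and Hsph1. Fos, the partner of Jun in the AP-1 transcription factor, was among the 5 genes most like Dnajb1, at 0.88. For Hsph1 the list went on with Hspa4l, another HSP110, at 0.92 and Pfas, an enzyme of purine synthesis, at 0.90. Hspe1 went with mitochondrial genes, namely Mrpl32 of the mitochondrial ribosome at 0.94, the respiratory chain subunits Cox7b, Ndufa5 and Ndufb3 at 0.94, 0.93 and 0.93, and the channel gene Vdac3. Hspd1 went with Tufm, the mitochondrial translation elongation factor, at 0.90, with Apex1, Ccna2 and Yars2, and with Dnaja3, the mitochondrial J-domain protein, at 0.88. Rbm3 was most like Nr4a3, an orphan nuclear receptor, at 0.92, with Marchf7, Fbxw11 and Lysmd3 also among its 5. Cirbp was most like Tiprl at 0.86, then Mafk, Oser1, Tm7sf3 and Paip2b. The highest r was 0.81 for Hsp90aa1 (Atg4a, ahead of Aacs, Tbc1d8b, Gtf3c5 and Scd2) and 0.75 for Hspa8 (Prmt9, ahead of Pfas, Irf3, Ube2f and Wdr73).

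No difference between the cell types passed the test for any of the 10 genes. None of them had an edgeR adjusted p under 0.05 for ILC3 minus ILC2, averaged over the 4 times, where 27.1% of all genes did, and none had an unadjusted p under 0.05, where 38.3% did. The difference was 0.52 ± 0.47 for Hspa1b (log2 fold change ± SE), 0.36 ± 0.17 for Hspd1, -0.48 ± 0.33 for Dnajb1, -0.17 ± 0.13 for Hspa8, -0.16 ± 0.12 for Cirbp and -0.27 ± 0.21 for Rbm3. Hspd1 came nearest, with an adjusted p of 0.138, and its difference ran from 0.20 to 0.48 with 1 library left out. Leaving out ILC3 ZT23 replicate 1 leaves that group to replicate 2, which stood far above the other ILC3 libraries for Hspd1 at 446 CPM. A p that misses the threshold does not show equal levels, and the SE was 0.33 for Dnajb1 and 0.47 for Hspa1b. For Hspa1a the value was 0.52 ± 0.47, and it was -0.11 without ILC3 ZT4 replicate 2. The median over all genes was 0.11, and in all of these values the cell type cannot be told apart from the batch.

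Other chaperones were counted at the same level of p, where 2.31% of all genes were higher and 4.19% lower. Of 31 listed cytosolic chaperones and cochaperones, 6 were higher at night and 1 lower at an unadjusted p under 0.05 over both cell types, and none passed the adjusted test. The 6 were Cacybp at 0.55 ± 0.14, the HSP110 gene Hspa4l at 0.61 ± 0.18, the HSP90 immunophilin Fkbp4 at 0.50 ± 0.15, the HSP90 cochaperones Chordc1 at 0.42 ± 0.13 and Stip1 at 0.38 ± 0.12, and Ahsa1, the activator of the HSP90 ATPase, at 0.31 ± 0.12. Dnajb2 was at -0.44 ± 0.18. The median of the list was 0.03, beside 0.00067 over all genes tested and 0.98 over the 6 cytosolic chaperone genes described above. None of the 8 genes of the cytosolic chaperonin CCT had an unadjusted p under 0.05, and their values lay between -0.15 (Cct2) and 0.14 (Cct6a). Of 9 further mitochondrial chaperones and proteases 1 had one and was higher, Dnaja3, at 0.52 ± 0.18, with Grpel2 at 0.32 and Grpel1 at 0.17. None had one among 14 endoplasmic reticulum chaperones (median 0.13), with Pdia4 at 0.40 ± 0.19, Dnajb9 at -0.33 ± 0.16 and Sdf2l1 at 0.36 ± 0.24.

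Of 5 listed genes for heat shock factors and their binder 4 were tested and none had an unadjusted p under 0.05. Hsf1 was at 0.02 ± 0.11, Hsf2 at 0.05 ± 0.23, Hsf4 at 0.48 ± 0.57 and Hsbp1, which binds HSF1, at 0.09 ± 0.13. Of 7 small heat shock proteins 6 were tested, and 1 had an unadjusted p under 0.05, the lens and muscle chaperone Cryab at -2.05 ± 0.71, with Hspb1 at 1.59 ± 0.78 and Hspb11 at -0.38 ± 0.23. Levels of Cryab were low, with group means of 0 to 3.69 CPM, and the fitted value of a gene with a group at 0 depends on the prior count. Between cell types, 15.1% of all genes were higher in ILC3 at an edgeR adjusted p under 0.05 and 12% were lower. By that test 11 of the 14 endoplasmic reticulum chaperones were lower in ILC3, with Hsp90b1 at -1.81 ± 0.22, Pdia4 at -1.73 ± 0.19 and Creld2 at -1.77 ± 0.22, followed by Dnajc3, Dnajb11, Manf, Hyou1, Pdia6, Dnajb9, Hspa5 and Pdia3. All 5 plasma cell markers were lower in ILC3 too, with Jchain at -6.13 ± 0.54, and the part of plasma cell RNA in the chaperone values was not tested. Of the 31 cytosolic genes 6 were called, beside the 27.1% of all genes given above. Of the 6, 4 were higher in ILC3 (Hspa4l at 0.81 ± 0.19, Ptges3 at 0.47 ± 0.13, Bag2 at 1.32 ± 0.40 and Stub1 at 0.43 ± 0.14) and 2 were lower (Dnaja1 at -0.99 ± 0.16 and Dnajc7 at -0.47 ± 0.13). Cct6a was higher at 0.47 ± 0.15, Clpb, a mitochondrial disaggregase, was lower at -0.81 ± 0.19, and Cryab was higher at 2.91 ± 0.70.

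**Figure D5:**
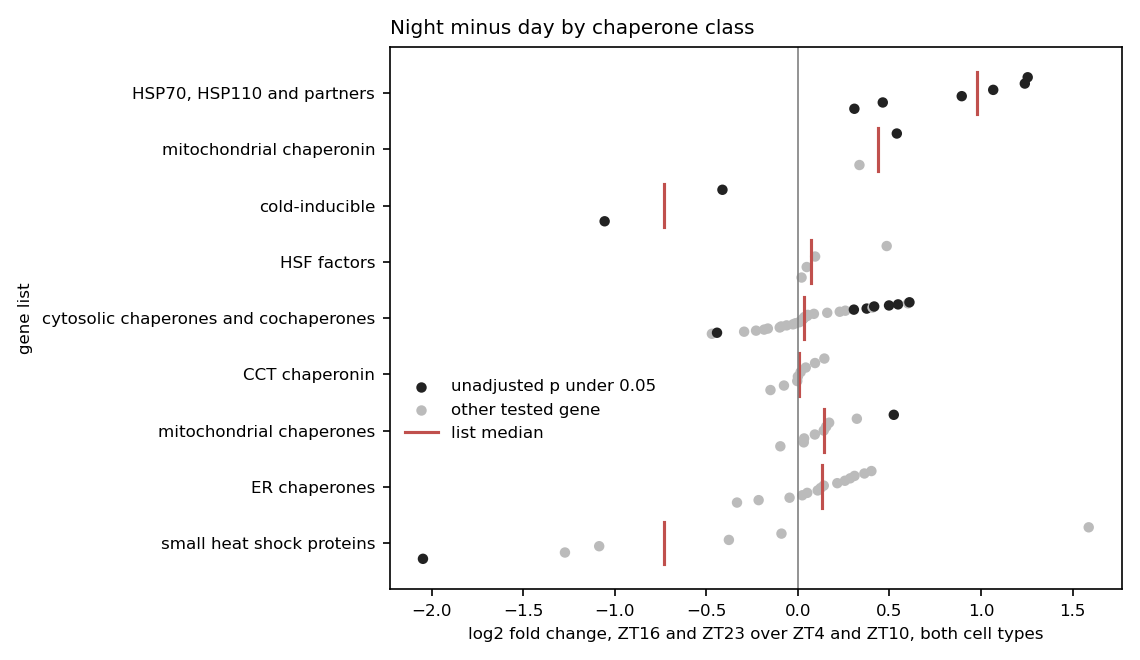
Log2 fold change of night over day, averaged over both cell types, for each gene of 9 lists, with dark points for an unadjusted p under 0.05, grey points for other genes tested and a red line at the median of each list. The top list of HSP70, HSP110 and partners holds Hspa1a, Hspa1b, Hspa8, Hsp90aa1, Hsph1 and Dnajb1 and has a median of 0.98. Among the small heat shock proteins the Hspb8 point rests on counts too low for a usable error.

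Other signals went with these genes, and their part in the values above was not tested. Enzymatic digestion and sorting are known to induce immediate early genes and heat shock genes. The sum over 10 genes of that response was 15055 to 22952 CPM at night and 16306 to 22562 CPM in the day in ILC3, and 19145 to 22603 CPM at night and 19614 to 21304 CPM in the day in ILC2, so night and day overlapped. Within that list Fos was at 0.59 ± 0.18 and Jun at 0.64 ± 0.27 for night minus day over both cell types. Each had an unadjusted p under 0.05, where 2.31% of all genes were higher, and the other 8 had a larger p. The r between Hspa1a and the summed list was 0.49 over 8 ILC3 libraries and 0.54 over 7 ILC2 libraries. For Rbm3 it was -0.23 in ILC3 and -0.55 in ILC2. Taken singly over 15 libraries, after removal of each cell type mean, Jun had an r of 0.95 with Hspa1a. By the same measure Fos had 0.88 with Dnajb1. The other 8 genes of the list were not among the 5 most like any member.

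Plasma cell markers summed to 1210.5 to 4273 CPM at night and 364 to 2411 CPM in the day in ILC3, and to 18653 to 191335 CPM at night and 36926 to 97542 CPM in the day in ILC2. Epithelial markers summed to 233 to 2264 CPM at night and 127 to 862 CPM in the day in ILC3, and to 227 to 325 CPM at night and 51.7 to 317 CPM in the day in ILC2. At ZT4 the library with the higher Hspa1a level had the higher sum of both lists in either cell type. The same held in ILC3 ZT10 and ILC3 ZT16, and for the plasma cell list alone in ILC2 ZT10 and ILC2 ZT23. In ILC3 ZT23 the library with more Hspa1a had the lower sum of both lists. Markers of the sorted cells went against Hspa1a, with an r of -0.89 for the ILC3 list over 8 ILC3 libraries and -0.88 for the ILC2 list over 7 ILC2 libraries. For the ILC3 list in ILC3, r was -0.88 for Hsph1, -0.81 for Dnajb1, 0.63 for Cirbp and 0.72 for Rbm3. For the ILC2 list in ILC2 it was -0.70, -0.83, 0.65 and 0.84 in that order. The sum of T cell markers was 677 to 2409 CPM at night and 308 to 1632 CPM in the day in ILC3, and 313 to 468 CPM at night and 400.0 to 591 CPM in the day in ILC2, and its r with Hspa1a was 0.77 in ILC3 and -0.57 in ILC2. With Rbm3 it was -0.64 in ILC3 and 0.59 in ILC2. For myeloid markers the r with Hspa1a was -0.65 in ILC3 and -0.39 in ILC2. All 5 had a night minus day below 0 over both cell types (median -0.27), where 50.1% of all genes were above 0. None of the 5 had an unadjusted p under 0.05, where 4.19% of all genes were lower at that level. For the plasma cell list the r with Hspa1a was 0.44 in ILC3 and 0.59 in ILC2, and for the epithelial list 0.46 in ILC3 and 0.64 in ILC2. No marker of the plasma cell list was at 0 in any library, and at most 1 of the epithelial list was. Over both cell types all 5 plasma cell markers and all 5 epithelial markers had a night minus day above 0, with medians of 0.71 and 0.53. Of all genes 50.1% were above 0. In each list 1 marker had an unadjusted p under 0.05, where 2.31% of all genes were higher at that level. The ILC2 library with the most plasma cell RNA was ZT23 replicate 1, and the ILC3 library with most epithelial RNA was ZT23 replicate 2. Without these libraries, night minus day over both cell types was 0.94 for Hspa1a, 0.78 for Hsph1, -0.33 for Cirbp and -1.04 for Rbm3. Each ZT23 group then held 1 library, so only effect sizes are given.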

How the data were processed

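The 15 libraries hold polyA RNA of ILC3 and ILC2 from the small intestine of mice. RNA was taken with a column kit for small samples, and 100 ng of total RNA went into an Illumina TruSeq library, per the labels' protocols. The authors deposited raw read counts per gene, 1 file per library, with Entrez gene identifiers and gene lengths. Reads were counted with featureCounts on mm10, per the submitters' processing notes. No aligner, strandedness or rule for reads with several matches is given in the sources used here.

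Of 22797 genes 22718 were named through RefSeq (GRCm38.p6, the same build). Genes were kept with filterByExpr at a minimum count of 10, and 8 group means were fitted to all 15 libraries in edgeR 4.0.16 (R 4.3.3, TMM scaling, quasi-likelihood F-test, 7 residual degrees of freedom), because ILC2 at ZT16 holds 1 library. P-values were adjusted by Benjamini-Hochberg over all 15339 genes, with a threshold of 0.05, and the code was tested on simulated counts. Log2 CPM used a prior count of 2. Counts of replicate libraries differed by more than sampling noise, with a chi-square per degree of freedom of 22.0 to 229. The 10 genes and the gene lists were chosen with earlier results of these data known. Genes named are the 10 members, up to 3 with the smallest p of each chaperone list for night minus day and for ILC3 minus ILC2 plus any past the adjusted threshold, the 5 genes most like each member and 5 clock genes; the further cytosolic genes at an unadjusted p under 0.05, Hsf1, Jchain, and Fos and Jun in the digestion list were added after their values were seen. Some items that these rules or lists would name are not reported here. Alternatives were other scalings, no filter, DESeq2 1.42.0, a replicate block, a fit of 1 cell type, each library left out, and 2 marker-rich libraries left out.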

Additional observations from a re-analysis of the deposited data

Results flagged for a closer look

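In 4 cases a single library stood apart from the others of its cell type, in 50 sets of 4 to 8 libraries examined, where chance gives about 1 in 20. Hsp90aa1 was at 149.7 CPM in ILC3 ZT10 replicate 2, below the other 3 ILC3 day libraries, the nearest of which had 224 CPM. Hspd1 was at 446 CPM in ILC3 ZT23 replicate 2, and the next of the 8 ILC3 libraries had 281 CPM. Hspe1 was at 188 CPM in the same library, with the next at 109 CPM. Hspe1 was at 57.2 CPM in ILC2 ZT10 replicate 1, the least deep library, below the other 3 ILC2 day libraries, the nearest of which had 91.5 CPM. The cause was not tested for any of them.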

How the results depend on the processing

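The count of the 10 genes with an adjusted p under 0.05 was 0 for each comparison under the other scalings, without the filter, in fits of 1 cell type and without the 2 marker-rich libraries, the last chosen after seeing the data. With DESeq2 it was 3 for night minus day over both cell types, 1 in ILC3, 3 for ZT16 minus ZT4, 2 for time of day over both cell types and 1 for time of day in ILC3, and 0 elsewhere; DESeq2 called 59 of all genes for night minus day over both cell types. Leaving out each library in turn left the count at 0 (lowest 0, highest 0) for each comparison except ILC3 minus ILC2, which ran from 0 to 1 (Hspd1, without ILC3 ZT23 replicate 1). Without ILC3 ZT23 replicate 1, ILC3 ZT23 is replicate 2 alone, the library that stood apart for Hspd1. For night minus day over both cell types 9 of the 10 genes had an unadjusted p under 0.05 in the main fit. Of all 15339 genes 997 had one. The count for the 10 genes was not stable when single libraries were left out. With 1 library left out, the log2 fold change ran from 0.92 to 1.88 for Hspa1a and from 0.76 to 1.08 for Hsph1. It ran from 0.21 to 0.39 for Hspa8, from -0.47 to -0.31 for Cirbp and from -1.18 to -0.87 for Rbm3. The replicate numbers did not pair the libraries throughout: the r of same-numbered deviations ran from -0.16 to 0.42 within a cell type, and between ILC3 and ILC2 of 1 time it was 0.45 at ZT4, 0.15 at ZT10 and -0.03 at ZT23. The labels do not say whether such libraries share mice, and the fits over both cell types take them as independent. With the replicate block, 8 of the 10 had an unadjusted p under 0.05 for night minus day over both cell types. Of all 15339 genes 968 had one in that fit, and 0 passed after adjustment, none of the 10 among them. Of 908 alternative values for single genes 889 kept their direction and side of the threshold, 5 passed it and 14 changed sign. Hspe1 in ILC2, near 0 throughout, was -0.036 with library size scaling, -0.0044 without the filter, -0.0088 in a fit of 1 cell type, -0.15 without the marker-rich libraries, and -0.20 to 0.24 with 1 library left out. For ILC3 minus ILC2, leaving out 1 library gave -0.11 to 0.96 for Hspa1a, -0.11 to 0.96 for Hspa1b and -0.0017 to 0.45 for Hsph1, each lowest without ILC3 ZT4 replicate 2, and -0.067 to 0.21 for Hsp90aa1. Library size scaling gave a median ILC3 minus ILC2 of all genes of 0.26, against 0.11 with TMM. ZT16 minus ZT4 and time of day over both cell types could not be fitted without the ILC2 ZT16 library. The causes of these differences were not tested.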
